A study of Mus musculus with 14 samples.

Results

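The 33 genes described here encode enzymes that break down fatty acids, make ketone bodies or control these steps. They were chosen by symbol in the liver count table, which with the iMEF table holds 54532 genes, and were joined to the iMEF table by Ensembl gene ID, so all 33 had a row in both tissues. Of these, 22 act in mitochondria, 9 in peroxisomes and 2 elsewhere, *Cpt1c* at the endoplasmic reticulum and *Acot1* in the cytosol. The question asked of them was whether their transcript levels differ between senescent and control samples, in cultured fibroblasts and in liver, after loss of the telomere-binding protein TRF2 (gene *Terf2*).

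RNA-seq was done on 14 libraries. Senescent iMEFs (3 libraries) were large T-immortalized mouse embryonic fibroblasts of genotype Trf2F/F;Rosa-CreER given 4-hydroxytamoxifen, which activates the ubiquitously expressed CreER and deletes *Terf2*, and collected at day 7. Control iMEFs (3 libraries) had the same genotype and received vehicle, so the effects of the drug, of active Cre and of the deletion cannot be told apart. Senescent livers (4 libraries) came from Trf2F/F;Rosa-mTmG mice injected with AAV8-Tbg-Cre, a virus that expresses Cre from a hepatocyte promoter, and were collected 6 weeks later. Control livers (4 libraries) came from Rosa-mTmG mice given the same virus, so both liver groups carried the virus and the reporter and differed in the floxed *Terf2* alleles. No source used here states the age or sex of the mice or their feeding state at collection.

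Fatty acids enter mitochondria as carnitine esters, through a shuttle that starts with the carnitine palmitoyltransferases. Inside, each round of beta-oxidation removes an acetyl-CoA unit in a dehydrogenase, a hydratase, a further dehydrogenase and a thiolase step, and electrons leave through the flavoproteins ETFA, ETFB and ETFDH. Peroxisomes run a parallel pathway on very long and branched chains. The liver turns surplus acetyl-CoA into ketone bodies in fasting, when the nuclear receptor PPARA raises many of these genes.

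Among the members are 2 pairs of near-identical genes, whose sequences are shown first because short reads of one can be counted for the other. *Acot1* and *Acot2* lie close together on chromosome 12 (GRCm38, chr12:84009490-84018371 and chr12:83987861-83993873, both on the plus strand). Their coding sequences were 95.62% identical over 1232 aligned bases, with a longest identical run of 273 bases, and 23.7% of the 50-base windows of *Acot1* also occur in *Acot2*. *Acaa1a* (chr9:119339676-119350299, plus strand) and *Acaa1b* (chr9:119148023-119157093, minus strand) were 96.54% identical over 1272 bases, with a longest run of 327 bases and 34.0% of the windows of *Acaa1a* shared. The stretches printed are 60 coding bases of GENCODE M21 transcripts. They start at coding base 259 in both thiolases, at 823 in *Acot1* and at 946 in *Acot2*. Capitals mark the bases that differ within a pair, 11 in the thiolases and 13 in the thioesterases.
Acaa1a: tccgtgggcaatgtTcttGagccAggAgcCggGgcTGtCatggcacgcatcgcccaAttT
Acaa1b: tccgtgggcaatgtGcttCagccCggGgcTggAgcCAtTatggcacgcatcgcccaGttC
Acot1: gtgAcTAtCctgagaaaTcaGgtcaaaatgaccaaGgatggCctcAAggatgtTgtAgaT
Acot2: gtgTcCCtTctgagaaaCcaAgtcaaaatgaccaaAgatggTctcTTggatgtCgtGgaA

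Libraries held 15364450 to 20177401 reads in genes, and levels are given in CPM, the reads of a gene per 1000000 reads of its library after TMM scaling. *Terf2* itself was at 0.215 to 0.305 CPM in senescent iMEFs, against 37.7 to 39.2 CPM in control iMEFs. In livers, which also hold cells that the hepatocyte promoter does not reach, it was at 2.84 to 4.91 CPM in senescent samples, against 11.3 to 13.8 CPM in control samples. The 7 hepatocyte markers found summed to 83845 to 106927 CPM in senescent livers and 77100.0 to 89251 CPM in control livers, and to 3.92 to 6.03 CPM in senescent iMEFs and 3.99 to 5.40 CPM in control iMEFs. Of 8 fibroblast markers, 7 fell in senescent iMEFs, where 21.2% of all genes tested fell. The 8 summed to 8902 to 11050.1 CPM in senescent iMEFs, against 18891 to 20624 CPM in control iMEFs. *Vim* did not fall, with 3111 to 3318 CPM in senescent iMEFs and 2739 to 2990 CPM in control iMEFs. The part of these markers in the results was not tested.

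Most of these genes had higher transcript levels in control livers than in control iMEFs. Per kb of exon length, the 33 genes had a median level of 49.9 CPM in control livers, against 9.12 CPM in control iMEFs. The mean was higher in control livers for 32 genes and lower for 1, and for 30 every control liver was above every control iMEF library. The tissues were scaled apart and their levels were not tested against each other, so these values are a description. *Acaa2*, the last thiolase of the mitochondrial spiral, had the highest level per kb in control livers (574 CPM) and was at 36.7 CPM in control iMEFs. *Hsd17b10*, a short-chain dehydrogenase that also works in mitochondrial RNA processing, was at 75.2 CPM per kb in control livers and 57.0 CPM per kb in control iMEFs.

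Several peroxisomal enzymes were close to absent in iMEFs. *Acaa1b*, a peroxisomal thiolase, was at 475 CPM per kb in control livers and 0.0961 CPM per kb in control iMEFs. *Ehhadh*, the bifunctional hydratase and dehydrogenase of the peroxisome, was at 159 CPM per kb in control livers and 0.237 CPM per kb in control iMEFs. The branched-chain oxidase *Acox2*, which also acts on bile acid precursors, was at 49.2 CPM per kb in control livers and 0.0663 CPM per kb in control iMEFs. Of the mitochondrial members, *Bdh1*, which interconverts the ketone bodies acetoacetate and beta-hydroxybutyrate, showed the same contrast, with 71.7 CPM per kb in control livers and 0.228 CPM per kb in control iMEFs. *Cpt1c*, a carnitine palmitoyltransferase relative best known from neurons, ran the other way, with 0.119 CPM per kb in control livers and 4.83 CPM per kb in control iMEFs. *Cpt1b*, the muscle form, had 25 reads or fewer in every library, and 81.4% of its exon bases are shared with the same-strand gene model *Gm44502*.

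**Figure D1:**
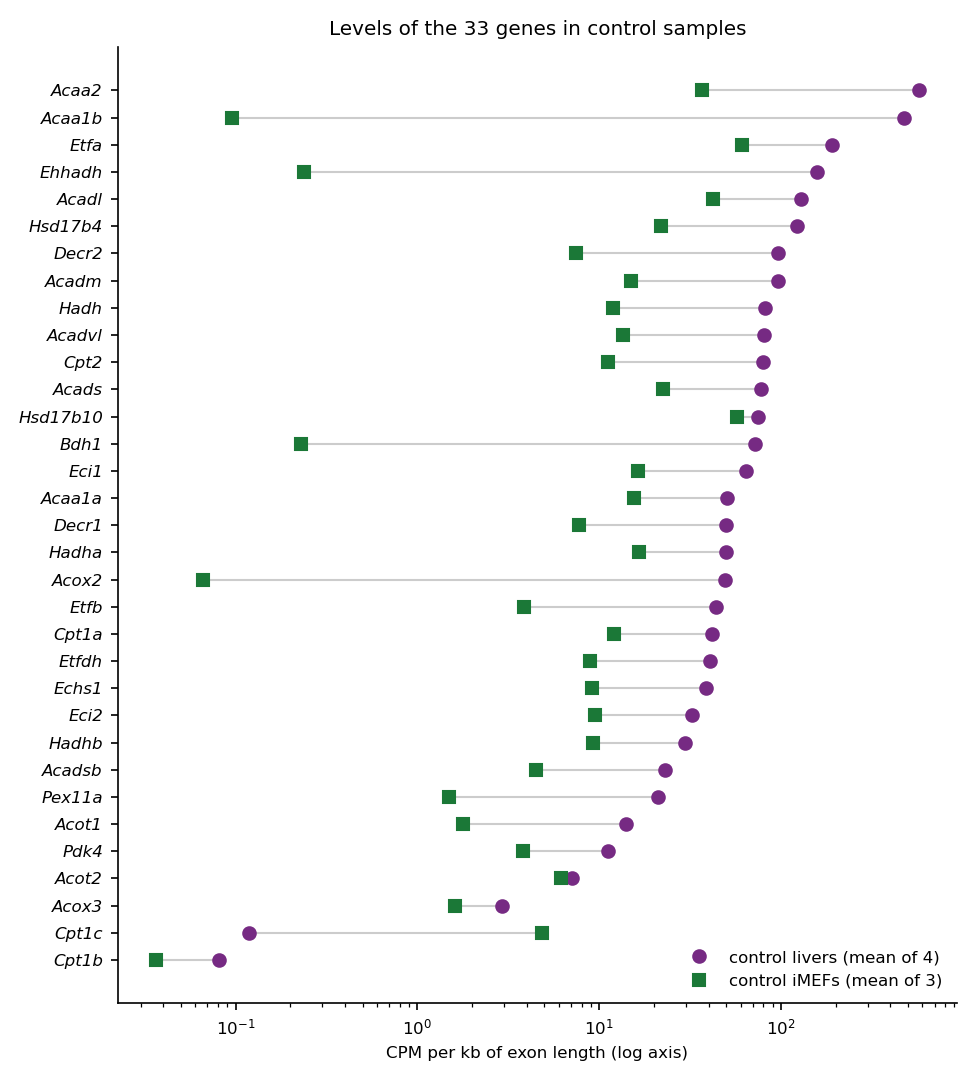
Mean level of each of the 33 genes per kb of exon length, in CPM on a log axis, in control livers (4 libraries) and control iMEFs (3 libraries). The liver mean is the higher for 32 genes, and *Cpt1c* is the exception.

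In iMEFs, many of the members were lower in senescent cells. Of 31 members that passed the filter on low counts (*Cpt1b* and *Acox2* did not), 14 fell, 2 rose and 15 did not pass an adjusted p of 0.05 (edgeR quasi-likelihood test, Benjamini-Hochberg adjustment over 13561 genes). Across all genes tested, 21.2% fell and 18.6% rose, against 45.2% and 6.45% of the members. The median log2 fold change was -0.21 over the members and 0.00 over all genes tested. Among the 21 tested mitochondrial members 11 fell and 0 rose, with a median of -0.25. Of the 8 tested peroxisomal members 2 fell and 1 rose, with a median of 0.06. The 1 that rose, *Acaa1b*, was tested only because senescent iMEFs passed the filter. The compartments were not tested against each other, and genes outside the list ran the other way. Of 12 other peroxisomal lipid genes 5 fell and 2 rose (median -0.36). Of 17 other mitochondrial acyl-CoA enzymes 3 fell and 2 rose (median -0.01). The iMEF groups did not overlap for 20 of the 31 members, 17 lower and 3 higher in senescent cells, while 50.6% of all genes tested did not overlap. CPM is a share of all reads, so a fall in it cannot be told apart from a rise of other RNA. Leaving out single libraries gave 11 to 16 calls, the fewest without control iMEF library 2.

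**Figure D2:**
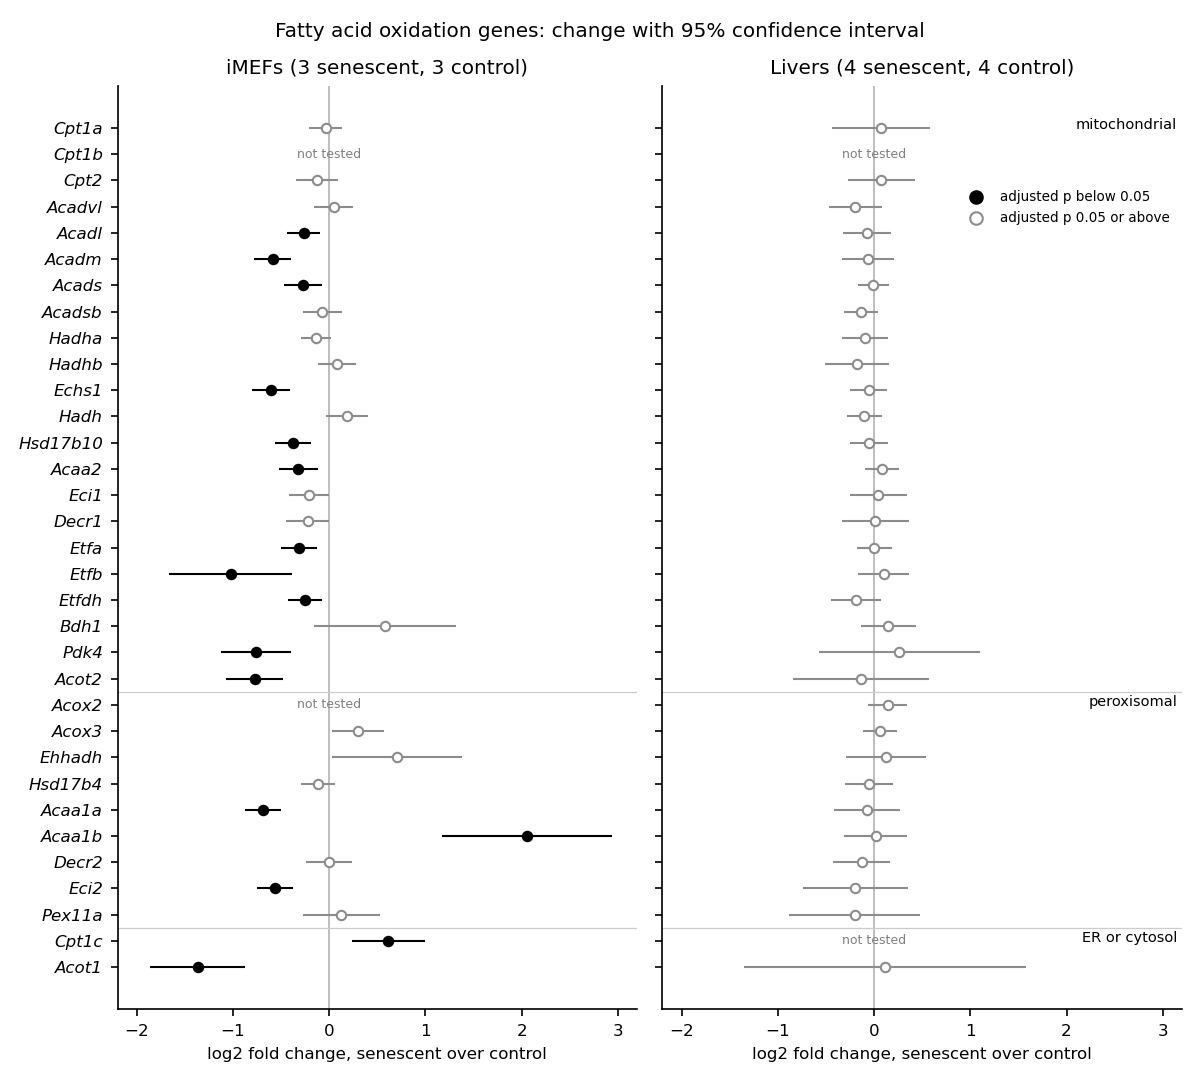
Log2 fold change of each gene, senescent over control, with its 95% confidence interval, in iMEFs and livers. Filled points passed an adjusted p of 0.05: 14 lie below 0 and 2 above it in iMEFs, and 0 are filled in livers.

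At the carnitine shuttle, neither gene that could be tested passed. *Cpt1a*, the form that sets the rate of entry in liver, had 83.5, 90.6 and 94.8 CPM in senescent iMEFs, against 92.0, 91.2 and 92.6 CPM in control iMEFs, and the groups overlapped (log2 fold change -0.04, 95% interval -0.21 to 0.13, adjusted p = 0.739, edgeR). *Cpt2*, the inner-membrane transferase, averaged 24.5 ± 1.89 CPM in senescent iMEFs and 26.7 ± 1.92 CPM in control iMEFs (SD, n = 3 each; log2 fold change -0.13, interval -0.35 to 0.10).

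The acyl-CoA dehydrogenases open each round of oxidation, each for a range of chain lengths, and 3 of 5 fell. *Acadm*, for medium chains, had 38.8, 39.7 and 38.7 CPM in senescent iMEFs, against 60.8, 62.0 and 53.2 CPM in control iMEFs. The senescent libraries lay close together and all below the control libraries (log2 fold change -0.59 ± 0.0885 SE, adjusted p = 0.000244, edgeR). *Acadl*, for long chains, averaged 70.1 ± 3.63 CPM in senescent iMEFs and 84.3 ± 2.30 CPM in control iMEFs (log2 fold change -0.27, adjusted p = 0.0195, edgeR), and *Acads*, for short chains, averaged 42.0 ± 3.68 CPM in senescent iMEFs and 50.7 ± 2.50 CPM in control iMEFs (log2 fold change -0.27, adjusted p = 0.0320, edgeR). Both calls were lost without control iMEF library 2 (adjusted p = 0.0680 and 0.0892, edgeR). *Acadl* also lost it without senescent library 2 (adjusted p = 0.0501, edgeR), and *Acads* without control library 3 or senescent library 1 or 3 (adjusted p = 0.0896, 0.149 and 0.0567, edgeR). *Acadvl*, for very long chains, and *Acadsb*, for short branched chains, had log2 fold changes of 0.05 (interval -0.15 to 0.25) and -0.07 (interval -0.27 to 0.13). For *Acadvl*, 42.9% of exon bases are shared with *Dvl2* on the opposite strand, and no source used here states whether counting used the strand.

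The later steps of the mitochondrial spiral were uneven, with 3 of 6 genes lower. *Echs1*, the short-chain enoyl-CoA hydratase, had 49.9, 53.5 and 45.2 CPM in senescent iMEFs, against 71.9, 79.9 and 74.8 CPM in control iMEFs (log2 fold change -0.61 ± 0.0911 SE, adjusted p = 0.000234, edgeR). *Hsd17b10* had 54.1, 61.6 and 55.1 CPM in senescent iMEFs, against 71.3, 77.2 and 73.5 CPM in control iMEFs (log2 fold change -0.38, adjusted p = 0.00421, edgeR). *Acaa2* had 46.3, 47.5 and 39.9 CPM in senescent iMEFs, against 53.8, 58.4 and 54.6 CPM in control iMEFs (log2 fold change -0.32, adjusted p = 0.0155, edgeR). All 3 of these genes were lower in every senescent library than in any control library, and *Acaa2* lost its call without control library 2 (adjusted p = 0.0733, edgeR). *Hadha* and *Hadhb*, the subunits of the trifunctional protein that handles long chains, had log2 fold changes of -0.14 (interval -0.29 to 0.02) and 0.08 (interval -0.12 to 0.28) and did not pass. *Hadh*, the dehydrogenase for shorter chains, had 0.18 (interval -0.03 to 0.40). For *Hadhb*, 61.5% of its 50-base windows also occur in *Gm13910*, so its reads may be divided between loci.

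All 3 genes of the electron transfer step fell. *Etfa*, a subunit of the electron transfer flavoprotein, had 93.0, 95.1 and 81.8 CPM in senescent iMEFs, against 119, 104 and 111 CPM in control iMEFs (log2 fold change -0.31, adjusted p = 0.0135, edgeR). Its partner *Etfb* had 1.82, 2.44 and 2.18 CPM in senescent iMEFs, against 6.57, 4.19 and 2.68 CPM in control iMEFs (log2 fold change -1.02 ± 0.293 SE, adjusted p = 0.0150, edgeR). In control iMEFs *Etfb* was listed at 3.85 CPM per kb and *Etfa* at 60.8 CPM per kb, and 58.2% of the exon bases of *Etfb* are shared with the same-strand models *Gm45233* and *Mir7051*, so its level is uncertain. *Etfdh*, which passes the electrons on to ubiquinone, averaged 56.3 ± 2.15 CPM in senescent iMEFs and 66.8 ± 1.74 CPM in control iMEFs (log2 fold change -0.25, adjusted p = 0.0280, edgeR). Without control iMEF library 1 the log2 fold change of *Etfb* was -0.66, and the calls of *Etfa*, *Etfb* and *Etfdh* were lost (adjusted p = 0.0759, 0.0938 and 0.0655, edgeR), and that of *Etfdh* also without control library 2 or senescent library 1 or 2 (adjusted p = 0.109, 0.0563 and 0.0658, edgeR). The auxiliary enzymes of unsaturated chains, *Eci1* and *Decr1*, had log2 fold changes of -0.21 (interval -0.42 to 0.00) and -0.23 (interval -0.45 to 0.00) and did not pass.

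*Pdk4*, the kinase that turns off pyruvate dehydrogenase when fat is burned, had 9.18, 6.52 and 7.80 CPM in senescent iMEFs, against 10.5, 14.9 and 14.7 CPM in control iMEFs (log2 fold change -0.76 ± 0.168 SE, adjusted p = 0.00346, edgeR). The ketone body gene *Bdh1* was near the limit of detection, with 1.02 to 1.89 CPM in senescent iMEFs and 0.605 to 1.22 CPM in control iMEFs, and did not pass (log2 fold change 0.58, interval -0.16 to 1.32).

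Of the 8 tested peroxisomal genes, 2 fell and 5 did not pass, and the 1 rise is no support for a change upward. *Acaa1a*, a peroxisomal thiolase, had 42.7, 43.5 and 41.6 CPM in senescent iMEFs, against 68.1, 74.0 and 63.9 CPM in control iMEFs, with the smallest adjusted p of any member (log2 fold change -0.69 ± 0.0871 SE, adjusted p = 6.24e-05, edgeR). *Eci2*, an enoyl-CoA isomerase found in peroxisomes and mitochondria, had 34.0, 35.4 and 36.8 CPM in senescent iMEFs, against 49.2, 55.2 and 52.5 CPM in control iMEFs (log2 fold change -0.56 ± 0.0860 SE, adjusted p = 0.000270, edgeR). Neither gene's groups overlapped. *Acaa1b* rose, at very few reads, with 18, 19 and 23 reads in senescent iMEFs, against 1, 7 and 3 reads in control iMEFs (log2 fold change 2.06 ± 0.409 SE, adjusted p = 0.00174, edgeR). It passed the filter on low counts only through the senescent group, so it had to differ to be tested at all. *Ehhadh* had 0.914 to 1.49 CPM in senescent iMEFs and 0.605 to 0.828 CPM in control iMEFs and did not pass (adjusted p = 0.0905, edgeR). *Acox3*, an oxidase for branched chains, had a log2 fold change of 0.30 (interval 0.03 to 0.57, adjusted p = 0.0761, edgeR). *Hsd17b4*, the D-bifunctional protein, *Decr2*, a dienoyl-CoA reductase, and *Pex11a*, a peroxin that promotes peroxisome division, had log2 fold changes of -0.12, 0.00 and 0.12 and did not pass.

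Both acyl-CoA thioesterases of the list, which release the fatty acid from CoA, fell. Cytosolic *Acot1* had 2.52, 3.66 and 1.72 CPM in senescent iMEFs, against 7.57, 7.01 and 6.24 CPM in control iMEFs (log2 fold change -1.37 ± 0.228 SE, adjusted p = 0.000510, edgeR). Mitochondrial *Acot2* had 7.89, 8.53 and 7.23 CPM in senescent iMEFs, against 15.1, 11.9 and 13.7 CPM in control iMEFs (log2 fold change -0.78 ± 0.136 SE, adjusted p = 0.000744, edgeR). When the reads of each near-identical pair were added together, an alternative chosen after the data were seen, both sums still fell. The summed thioesterases had a log2 fold change of -0.96 (adjusted p = 0.000137, edgeR) and the summed thiolases of -0.65 (adjusted p = 9.33e-05, edgeR).

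*Cpt1c* rose, with 35.7, 32.7 and 56.2 CPM in senescent iMEFs, against 31.0, 26.1 and 24.2 CPM in control iMEFs (log2 fold change 0.62 ± 0.175 SE, adjusted p = 0.0144, edgeR). A narrow gap separated its groups, and senescent library 3 stood above the other two. Its call was lost without control library 2 or 3 (adjusted p = 0.0530 and 0.0695, edgeR), and without senescent library 3 its log2 fold change was 0.35.

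**Figure D3:**
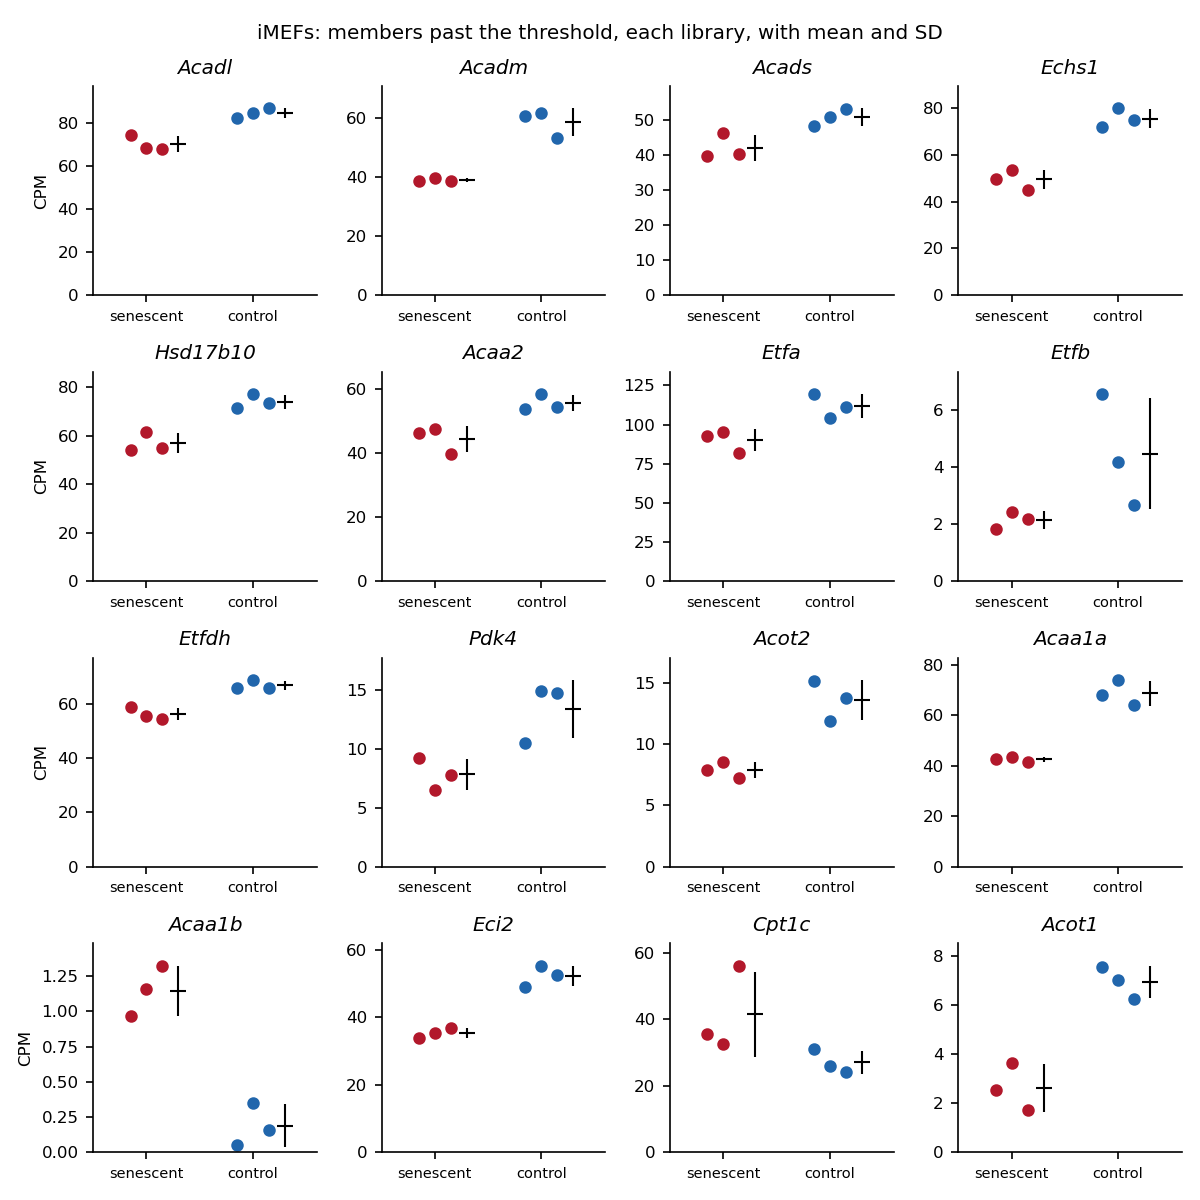
Level in CPM of the 16 members past the threshold in iMEFs, 1 panel per gene, for each senescent (left) and control (right) library, with mean and SD. In each panel the 3 senescent points lie on one side of the 3 control points, above them for *Acaa1b* and *Cpt1c* and below them for the rest.

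In livers no member passed the test. Of 31 tested (*Cpt1b* and *Cpt1c* were too low), 0 passed the edgeR quasi-likelihood test, 0 had an unadjusted p under 0.05, and 0 passed with DESeq2 or limma-voom. Across all 14270 genes tested 49 passed edgeR's test, or 0.343%, so a count of 0 among 31 is near that background. The groups overlapped for every tested member, while 4.51% of all genes tested did not overlap. In whole liver, fewer cells of a type cannot be told apart from less RNA per cell. The median log2 fold change was -0.05 over the members and -0.06 and -0.05 over the 21 mitochondrial and 9 peroxisomal ones. The largest log2 fold change in either direction was 0.26, for *Pdk4*. With single libraries left out it was between 0.04 (without senescent liver 1) and 0.64 (without control liver 3) for *Pdk4*, and -0.82 and 0.73 without the same livers for *Acot1*. The smallest adjusted p was 0.748 (edgeR), for *Acadsb*, with 147, 162, 157 and 138 CPM in senescent livers, against 173, 165, 169 and 155 CPM in control livers (log2 fold change -0.13, interval -0.31 to 0.04).

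The intervals bound what could have been missed. For 26 of the 31 members the 95% interval lay within a 1.5-fold change in either direction, and for 29 within a log2 change of 1. Over all 14270 genes tested in livers these counts were 8436 and 11829. *Acads* had the narrowest interval, -0.17 to 0.16, with 177, 186, 168 and 169 CPM in senescent livers, against 174, 172, 182 and 175 CPM in control livers. The intervals of *Echs1*, *Etfa* and *Acaa2*, which fell in iMEFs, were -0.25 to 0.14, -0.18 to 0.19 and -0.10 to 0.26. The 5 members whose interval reached beyond 1.5-fold were *Pdk4*, *Acot2*, *Eci2*, *Pex11a* and *Acot1*, for which such a change in at least 1 direction was not excluded.

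Within groups, some members varied widely between livers. *Acot1* had 145, 58.8, 17.1 and 17.2 CPM in senescent livers, against 52.3, 40.7, 113 and 14.7 CPM in control livers. The highest liver was 8.47 times the lowest among senescent livers and 7.68 times among control livers, and the groups overlapped (log2 fold change 0.11, interval -1.35 to 1.58). Its SD within groups, 1.35 on the log2 scale, was larger than that of 99.9% of all genes tested. *Pdk4* had 66.9, 62.1, 40.1 and 18.3 CPM in senescent livers, against 39.9, 27.4, 66.7 and 22.6 CPM in control livers (log2 fold change 0.26, interval -0.58 to 1.10). *Pex11a* had 99.6, 62.3, 39.7 and 31.9 CPM in senescent livers, against 71.5, 64.4, 89.6 and 43.0 CPM in control livers (log2 fold change -0.20, interval -0.88 to 0.48). In all 3 genes senescent liver 1 and control liver 3 were the highest of their groups.

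*Acot2* had 22.4, 13.6, 10.1 and 10.5 CPM in senescent livers, against 13.7, 15.1, 25.5 and 7.99 CPM in control livers. *Eci2* had 230.2, 173, 115 and 109 CPM in senescent livers, against 194, 169.6, 239 and 115 CPM in control livers. *Cpt1a* had 535, 321, 232 and 258 CPM in senescent livers, against 278, 292, 423 and 289 CPM in control livers. These genes repeated the order, with senescent liver 1 and control liver 3 on top. Over the 31 members the median SD within groups was 0.21 on the log2 scale, and over all genes tested 0.22, so such spread was a property of a few members. At the other end *Acads*, *Acox3* and *Acaa2* had SDs of 0.0531, 0.0558 and 0.0847 on that scale.

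**Figure D4:**
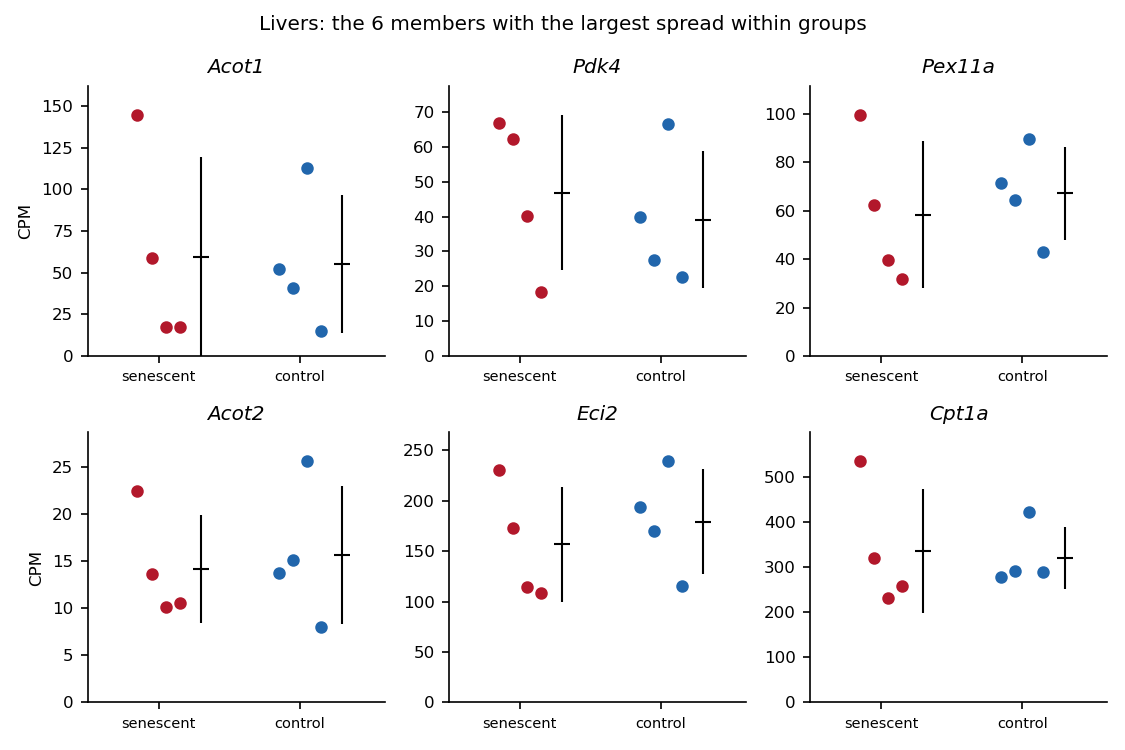
Level in CPM of the 6 members with the largest SD within liver groups, in each senescent (left) and control (right) liver, with mean and SD. The groups overlap in every panel, and senescent liver 1 and control liver 3 are the highest of their groups.

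The same livers were high or low across the list. Senescent liver 1 was the highest of its group for 18 of the 31 members (27.1% of all genes tested had their highest senescent value there) and senescent liver 4 the lowest for 17 (27.1% of all genes). Control liver 3 was the highest of its group for 26 members (26.1% of all genes) and control liver 4 the lowest for 19 (28.7% of all genes). Of the 13 members not highest in senescent liver 1, *Echs1*, *Hsd17b10* and *Etfa* had their lowest senescent level there. Averaged over the 21 mitochondrial members, the log2 level relative to the control mean was 0.18, 0.10, -0.17 and -0.23 in senescent livers 1 to 4 and -0.03, -0.04, 0.24 and -0.17 in control livers 1 to 4. For the 9 peroxisomal members these means were 0.29, 0.03, -0.21 and -0.30 in senescent livers and 0.02, -0.03, 0.26 and -0.25 in control livers. Both compartments gave the livers the same highest and lowest sample within each group.

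**Figure D5:**
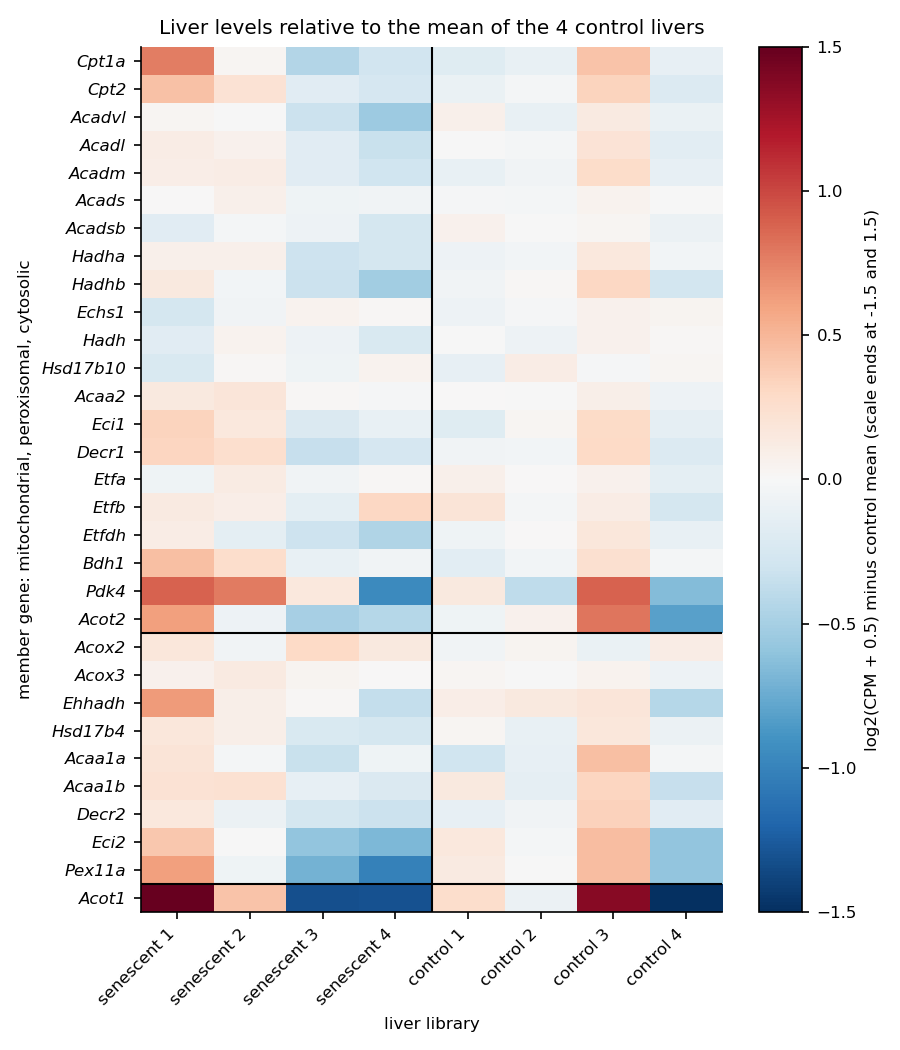
Log2 level of each of the 31 tested members in each liver, minus the mean of the 4 control livers, with senescent livers on the left. Senescent liver 1 and control liver 3 are mostly above 0, and senescent livers 3 and 4 and control liver 4 mostly below.

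Some genes outside the list, chosen after their values were seen, were high or low in the same livers, and others were not. *Cyp4a14*, a fatty acid hydroxylase known as a target of PPARA, had 1051, 669, 345 and 259.8 CPM in senescent livers, against 1038, 581, 1499.6 and 411 CPM in control livers. *Plin2*, which coats lipid droplets, had 844, 578, 320.0 and 296 CPM in senescent livers, against 428, 455, 739 and 308 CPM in control livers. *Srebf1*, a regulator of fat synthesis that insulin raises, ran the other way, with 219, 307, 539 and 481 CPM in senescent livers, against 426, 408, 297 and 509 CPM in control livers. Of the 21 tested PPAR regulators and targets, 14 were highest of their groups in both senescent liver 1 and control liver 3, and 1 was lowest in both. Both livers were highest for 6 of 11 ketone body and carnitine partners, 5 of 15 other peroxisomal lipid genes and 4 of 17 acyl-CoA synthetases and uptake genes. They were also highest for 3 of 15 peroxins, 2 of 17 other mitochondrial acyl-CoA enzymes and 1 of 5 genes of malonyl-CoA control. The share of all genes highest in both livers was not worked out, so these counts have no background. Of the 11 genes of the fasting and feeding response 0 were highest in both, 5 were lowest in both and 6 were neither. Among these, *G6pc*, which releases glucose in fasting, had 589, 785, 718 and 280.5 CPM in senescent livers, against 920.1, 1109, 484 and 281 CPM in control livers. The 10 leukocyte markers summed to 409.8 to 519 CPM in senescent livers and 255 to 629.6 CPM in control livers, and adipocyte markers were at or near 0. The part of any of these in the spread was not tested. Without senescent liver 1 and control liver 3, left out together after the data were seen, 0 members passed and the log2 fold change of *Acot1* was -0.21 (adjusted p = 0.941, edgeR).

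The difference between the tissues was itself tested, as the change in livers minus the change in iMEFs, in 1 edgeR fit over all 14 libraries. Of 30 members tested in both, 6 passed, while 17.1% of the 11693 genes tested did. *Echs1* differed by 0.55 on the log2 scale (interval 0.27 to 0.83, adjusted p = 0.00958, edgeR), with 268, 312, 334 and 325 CPM in senescent livers, against 305, 318, 337 and 330.3 CPM in control livers. *Acadm* differed by 0.52 (adjusted p = 0.0389, edgeR), with 401, 403, 332 and 302 CPM in senescent livers, against 346, 359.9, 453 and 344 CPM in control livers. *Acaa2* differed by 0.40 (adjusted p = 0.0457, edgeR), with 962, 987, 877 and 858 CPM in senescent livers, against 869.7, 867, 921 and 821 CPM in control livers. The liver groups of all 3 overlapped, and each of them fell in iMEFs.

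*Etfb* differed by 1.11 (adjusted p = 0.0165, edgeR), with 55.8, 54.3, 45.7 and 63.2 CPM in senescent livers, against 57.9, 49.5, 54.8 and 42.1 CPM in control livers. *Acaa1a* differed by 0.61 (adjusted p = 0.0495, edgeR), with 249.8, 214, 173 and 209 CPM in senescent livers, against 178, 200.3, 299 and 213 CPM in control livers. *Acaa1b* differed the other way, by -1.88 (adjusted p = 0.00314, edgeR), with 1065, 1074, 843 and 791 CPM in senescent livers, against 1018, 834, 1151 and 723 CPM in control livers, and rests on the 60 senescent and 11 control reads in iMEFs. Since the gene was tested only because the senescent iMEFs passed the filter, this value is no support for a difference between tissues. Leaving out single libraries gave 2 to 7 members. Of the 14 fits that left out 1 library, *Acaa1a* lost its call in 12, keeping it only without control liver 3 or senescent liver 3. *Acadm* and *Acaa2* lost theirs in 10 each, and both kept it without control liver 3, senescent liver 3 or senescent liver 4. *Acadm* also kept it without control iMEF library 3 and *Acaa2* without senescent iMEF library 2. *Etfb* lost its call in 2, without control iMEF library 1 or senescent iMEF library 1, where the count was 2 members. *Echs1* passed with each library left out. The iMEF falls of *Acot1*, *Acot2*, *Pdk4* and *Eci2* were not shown to differ from the livers (adjusted p = 0.340, 0.323, 0.197 and 0.468, edgeR). The same held for *Hsd17b10*, *Etfa*, *Acads*, *Acadl* and *Etfdh* (adjusted p = 0.0951, 0.105, 0.127, 0.431 and 0.847, edgeR).

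Other genes of fat metabolism, in lists written from general knowledge, gave the setting, and in livers 0 of them passed. Against the 21.2% of all genes that fell in iMEFs and the 18.6% that rose, the lists gave these counts. In iMEFs, 4 of 9 tested ketone body and carnitine partners fell and 0 rose. Among them, *Bdh2*, a cytosolic dehydrogenase, fell to 1.83 ± 0.424 CPM in senescent iMEFs, against 4.66 ± 0.178 CPM in control iMEFs (adjusted p = 0.000411, edgeR), and *Crot*, the peroxisomal carnitine octanoyltransferase, had a log2 fold change of -0.28 (adjusted p = 0.0309, edgeR). Of 12 other peroxisomal lipid genes 5 fell and 2 rose. *Scp2*, a peroxisomal thiolase and sterol carrier, fell to 48.7 ± 3.44 CPM in senescent iMEFs, against 74.3 ± 2.24 CPM in control iMEFs (adjusted p = 0.000150, edgeR). *Ech1*, a dienoyl-CoA isomerase, and *Phyh*, which starts alpha-oxidation, fell by 0.60 and 0.71 on the log2 scale. Of 15 peroxins 3 fell and 1 rose, with *Pex19*, a chaperone of peroxisomal membrane proteins, at a log2 fold change of -0.48 and *Pex7*, an import receptor, at 0.60.

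Of 11 tested acyl-CoA synthetases and uptake genes, 4 rose and 4 fell. *Acsl4*, which activates polyunsaturated fatty acids, was at 192 ± 13.9 CPM in senescent iMEFs, against 133 ± 13.0 CPM in control iMEFs, and *Acss2*, the cytosolic acetyl-CoA synthetase, at 13.8 ± 1.58 CPM in senescent iMEFs, against 24.0 ± 0.340 CPM in control iMEFs. Among 14 tested PPAR regulators and targets 5 rose and 6 fell. *Ppargc1a*, a coactivator of fat oxidation genes, rose to 4.02 ± 1.13 CPM in senescent iMEFs, against 0.692 ± 0.264 CPM in control iMEFs (log2 fold change 2.37, adjusted p = 7.38e-05, edgeR). Its control libraries were near the limit of detection, at 0.994, 0.505 and 0.577 CPM, so the size of this rise is uncertain. The gene was tested only because senescent iMEFs passed the filter on low counts, so this test is no support for a rise. The related *Ppargc1b* fell to 2.27 ± 0.143 CPM in senescent iMEFs, against 4.10 ± 0.0788 CPM in control iMEFs (log2 fold change -0.82, adjusted p = 0.00430, edgeR). *Pparg*, the receptor of the family best known from fat cells, rose to 19.1 ± 0.987 CPM in senescent iMEFs, against 10.3 ± 1.04 CPM in control iMEFs, and *Ucp2*, a mitochondrial carrier, fell to 4.19 ± 0.600 CPM in senescent iMEFs, against 13.2 ± 1.24 CPM in control iMEFs. Of 5 genes of malonyl-CoA control, which gates the carnitine shuttle, 2 rose, *Prkaa1* and *Prkaa2*, the catalytic subunits of AMPK, by 0.34 and 1.40 on the log2 scale. Of 17 other mitochondrial acyl-CoA enzymes 3 fell and 2 rose. Of 5 tested genes of the fasting and feeding response 1 fell and 1 rose, the latter again *Ppargc1a*.

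Promoters were searched because 14 members fell in iMEFs. The RefSeq table used (GRCm38.p6, 250 bases before to 50 after each start) held 29 of the 33 members, with 31 promoters. Both strands were searched for the nuclear receptor half-site AGGTCA and for 2 copies of it 1 base apart (AGGTCANAGGTCA) with up to 2 mismatches. The p53 response element was also searched for, with up to 2 mismatches. *Ppara* itself was at 0.266 CPM in senescent iMEFs and 0.349 CPM in control iMEFs, too low to test. The half-site was in 5 of the 31 (16.3% of 32851 promoters of all genes held it), the direct repeat in 3 (3.86% of all) and the p53 element in 0 (0.798% of all). Matches to the repeat can overlap those to the half-site. The promoters of *Echs1* (chr7:140116372-140116671), *Etfa* (chr9:55512194-55512493) and *Acadm* (chr3:153944594-153944893), all on the minus strand and printed 5′ to 3′ along the gene, are shown because these genes fell in iMEFs and held a match, in capitals.
Echs1: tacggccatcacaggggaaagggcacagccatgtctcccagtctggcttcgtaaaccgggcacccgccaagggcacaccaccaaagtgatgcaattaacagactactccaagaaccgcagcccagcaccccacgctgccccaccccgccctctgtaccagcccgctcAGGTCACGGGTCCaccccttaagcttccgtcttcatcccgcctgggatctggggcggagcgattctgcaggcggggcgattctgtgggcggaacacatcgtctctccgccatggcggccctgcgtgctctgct
Etfa: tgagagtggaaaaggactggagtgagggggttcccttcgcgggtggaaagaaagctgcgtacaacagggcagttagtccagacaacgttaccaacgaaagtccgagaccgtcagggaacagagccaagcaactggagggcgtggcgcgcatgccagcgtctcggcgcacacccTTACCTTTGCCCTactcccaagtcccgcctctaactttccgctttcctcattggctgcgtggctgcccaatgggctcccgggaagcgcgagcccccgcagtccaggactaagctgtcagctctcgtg
Acadm: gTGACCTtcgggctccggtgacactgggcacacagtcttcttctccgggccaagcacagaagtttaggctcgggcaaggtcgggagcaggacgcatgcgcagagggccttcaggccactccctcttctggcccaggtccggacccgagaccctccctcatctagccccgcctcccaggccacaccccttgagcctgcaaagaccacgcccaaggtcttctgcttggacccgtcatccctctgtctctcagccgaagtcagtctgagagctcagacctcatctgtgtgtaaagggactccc
The *Echs1* match is a direct repeat on the gene's strand, the *Etfa* match a direct repeat on the other strand, and the *Acadm* match a single half-site on the other strand, at the far end of the window. A match describes letters and is neither a bound site nor a cause of a change.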

How the data were processed

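RNA-seq reads were counted per gene by the authors, who deposited raw counts for 6 iMEF and 8 liver libraries, and the submitters' notes name STAR, featureCounts, DESeq2 and mm10. No source used here gives versions, the annotation release or the strand setting. The study's methods call the replicates biological. Deposited normalized tables were not used.

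Each tissue was tested apart with edgeR 4.0.16 (R 4.3.3) by the quasi-likelihood test after filterByExpr and TMM scaling, and the difference between tissues in 1 fit over 14 libraries. P-values were adjusted over all genes tested (Benjamini-Hochberg, threshold 0.05). The test was also run on simulated counts, drawn from its own model with dispersions estimated from these data, so that run is no independent check. Exon lengths and overlaps came from GENCODE M21 (GRCm38), which held 54495 of 54532 gene IDs. Deviations used log2(CPM + 0.5). Alternatives were DESeq2 1.42.0, limma-voom (limma 3.58.1), other scaling, no filter, a threshold of 0.01, a replicate block and leaving out libraries.

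The members and lists were chosen with earlier results of these data known. Values by library were given for up to 12 called members per comparison with the smallest p, and of other lists up to 4 genes with the smallest p were named. *Ppargc1b* was named besides, to stand beside *Ppargc1a*. The members and genes given to show the spread between livers were chosen after their values were seen. Some genes that these rules pick are not reported here.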

Additional observations from a re-analysis of the deposited data

Results flagged for a closer look

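In control livers, 3 members had 1 library far above the others, of 62 groups of livers looked at, and chance flags about 1 group in 20. It was control liver 3 each time. *Cpt1a* was at 423 CPM there, against 292 CPM in the next control liver, *Acadm* at 453 CPM, against 359.9 CPM, and *Hadha*, a subunit of the trifunctional protein, at 481 CPM, against 421 CPM.

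The change in livers minus the change in iMEFs passed an adjusted p of 0.05 for 6 of 30 members (edgeR quasi-likelihood test), near the 17.1% of all genes tested that passed. On the log2 scale it was 0.55 for *Echs1*, 0.52 for *Acadm*, 0.40 for *Acaa2*, 1.11 for *Etfb*, 0.61 for *Acaa1a* and -1.88 for *Acaa1b*, which was tested only because senescent iMEFs passed the filter on low counts.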

How the results depend on the processing

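In iMEFs 16 members passed, and the same 16 passed with DESeq2, limma-voom, RLE scaling and no filter on low counts. A threshold of 0.01 left 9, leaving out single libraries gave 11 to 16, and adding the reads of near-identical pairs together left 14 entries. In livers 0 passed in every alternative run, leave-one-out fits included (0 to 0). For the difference between tissues, 6 passed, 6 with DESeq2 and RLE scaling, 5 with limma-voom, 5 without senescent liver 1 and control liver 3 together, 4 without the filter, 2 at a threshold of 0.01, and 2 to 7 without single libraries. No member that passed changed direction. The labels do not say whether the replicate numbers pair samples. Same-numbered libraries had correlations of 0.00, -0.06 and -0.18 in iMEFs and -0.01, -0.09, -0.04 and 0.26 in livers. With so few libraries these values cannot show whether samples were paired. With the replicate block 15 members passed in iMEFs, 0 in livers and 3 in the difference. The cause of these changes was not tested. With 4 livers a group, a 1.5-fold change was not excluded for 5 members.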
